A study of Mus musculus with 4 samples.

Results

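Non-classical monocytes are the blood monocytes that express little Ly6C in the mouse. They were selected here from single-cell RNA sequencing of whole mouse lung by the RNA molecules (unique molecular identifiers, UMIs) each cell held. A cell was included when Treml4, Ace, Cd300e, S1pr5 and Eno3 together gave at least 5 UMIs and the broader monocyte genes Csf1r, Clec4a1, Clec4a3, Aif1, Cx3cr1 and Adgre4 together gave at least 5. It also had to hold less than 0.2% of its UMIs from C1qa, C1qb, C1qc and Ms4a7, less than 5% from the surfactant genes Sftpc, Sftpb and Sftpa1, at most 2 UMIs of Cd79a, Cd79b, Cd3d and Cd3e, and at most 1 UMI of Cdh5 and Cldn5. The rule selected 1202 of 25982 cells. Since the cells were chosen on the values of these genes, the levels of those genes are given below as a description only.

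The series holds 4 libraries of lung cells from mice aged 11 weeks, and each library is 1 pool of cells from 5 mice. NW was wild type in normoxia and NK was FUNDC1 knockout in normoxia. Both received the carboxymethylcellulose vehicle of SU5416, a VEGF receptor inhibitor. HSW was wild type and HSK was FUNDC1 knockout, both given the pulmonary hypertension model HySu, which is hypoxia with 3 weekly doses of SU5416. FUNDC1 is a receptor for mitophagy on the outer mitochondrial membrane. The series title speaks of endothelial FUNDC1 deficiency, while the sample labels say knockout and do not name the cells that lack the gene. With 1 library in each group there is no test of genotype or treatment: every interval below is an exact 95% interval that covers counting error only, and the spread between mice is not known.

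Monocytes leave the bone marrow as classical, Ly6C-high cells that carry the chemokine receptor CCR2 and enter inflamed tissue. Some of them convert in the blood into non-classical cells, which crawl along the inner wall of vessels by the integrin LFA-1, need the nuclear receptor NR4A1 for their development and the fractalkine receptor CX3CR1 for their survival, and clear debris from the capillaries. The lung, with its dense capillary bed, is a main site where they are found.

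The 4 libraries held 4128 to 9164 cells and 41308071 to 63501686 UMIs. The median depth was 6311 UMIs per cell for NW, 5355 for NK, 7185 for HSW and 7845.5 for HSK. Between pairs of libraries 256 cell barcodes were shared, of which 1 belonged to a non-classical monocyte in both (NW and NK). Fundc1 had 202 UMIs in the non-classical monocytes of NW (42.2 CPM, UMIs of the gene scaled to a fixed total of UMIs), 41 in HSW (34.8 CPM), 1 in NK (0.381 CPM) and 0 in HSK, where 3 counts would be 7.03 CPM. Both knockout libraries were thus at or near 0 in these cells. In all other lung cells Fundc1 stood at 42.5 CPM in NW, 39.0 in HSW, 0.920 in NK and 0.245 in HSK.

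Non-classical monocytes were the most frequent in the normoxic wild type and the least frequent in the HySu knockout. They made up 646 of 7649 cells in NW, which is 8.45% (7.83 to 9.09). In NK they were 390 of 9164 cells, or 4.26% (3.85 to 4.69). In HSW they were 136 of 5041 cells, or 2.70% (2.27 to 3.18), and in HSK 30 of 4128 cells, or 0.727% (0.491 to 1.04). The 4 intervals did not overlap. The share in NK was 0.504 times that in NW (0.443 to 0.572), and the share in HSW was 0.319 times that in NW (0.264 to 0.385). HSK stood at 0.171 times NK (0.114 to 0.248) and at 0.269 times HSW (0.175 to 0.402). A share of cells moves with every other cell type in the suspension, so fewer non-classical monocytes and more of other cells cannot be told apart.

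The gate counts UMIs, so a deeper cell passes it more easily. When each cell was thinned to 4500 UMIs and shallower cells were left out (1463 of NW, 3304 of NK and 322 of HSW), the shares were 5.93% for NW, 2.54% for NK, 1.63% for HSW and 0.218% for HSK. The order of the libraries was the same.

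Classical monocytes, gated on Ly6c2, F13a1, Ccr2 and Vcan, were less frequent in NK than in NW, while their share in HSW against NW differed with the thinning of cells to equal depth. Of all cells they were 10.8% for NW, 6.11% for NK, 10.4% for HSW and 3.54% for HSK. Their share in NK was 0.565 times that in NW (0.507 to 0.630), and in HSW it was 0.963 times that in NW (0.862 to 1.08), an interval that includes 1. In filtered cells, defined below, that ratio was 1.03 (0.879 to 1.20), but in cells thinned to 4500 UMIs it was 0.813 (0.712 to 0.928), an interval below 1. Among the cells of both monocyte gates, non-classical cells made up 43.9% for NW, 41.1% for NK, 20.6% for HSW and 17.0% for HSK. The ratio of this share was 0.469 for HSW to NW (0.387 to 0.565) and 0.936 for NK to NW (0.823 to 1.06). For HSK to HSW it was 0.828 (0.538 to 1.24), but 0.431 (0.190 to 0.862) in thinned cells, where the shares were 38.3%, 33.6%, 17.4% and 7.5% for NW, NK, HSW and HSK.

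Many gated cells also carried RNA of another cell type. Lists of marker genes for 11 other lineages were summed in each cell, and at least 3 UMIs of 1 such list were found in 262 gated cells of NW (40.6%), 208 of NK (53.3%), 59 of HSW (43.4%) and 25 of HSK (83.3%). These cells were deep, with medians of 7207, 5855, 10618 and 16524 UMIs in the 4 libraries. Neutrophil markers were found in 126, 52, 30 and 11 cells and alveolar macrophage markers in 60, 53, 24 and 16. Alveolar type 2 markers were found in 64 cells of NW, 65 of NK, 0 of HSW and 8 of HSK. No doublet caller was run, and whether these cells are doublets, cells with adhering RNA or truly mixed states was not tested.

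After the removal of such cells, 384 remained of NW, 182 of NK, 77 of HSW and 5 of HSK, called filtered cells from here on. They held 2208330, 854657, 439200 and 28052 UMIs, with medians of 5202.5, 4252.5, 5206 and 5228 per cell. The summed alveolar macrophage markers went from 1182, 1389 and 2157 CPM to 65.2, 99.5 and 43.3 CPM in NW, NK and HSW, and the summed fibroblast markers from 627, 987 and 2001 CPM to 121, 179 and 82.0 CPM. The filtered share of all cells was 5.02% for NW, 1.99% for NK, 1.53% for HSW and 0.121% for HSK, in the same order as before. The intervals of NK (1.71% to 2.29%) and HSW (1.21% to 1.91%) overlapped here. Of both monocyte gates, filtered non-classical cells were 49.1% in NW and 38.1% in NK, and here the ratio of NK to NW was 0.775 (0.646 to 0.927), an interval below 1. In HSW this filtered share was 22.2% and in HSK 7.94%, a ratio of HSK to HSW of 0.358 (0.113 to 0.871). HSK, with 5 filtered cells, enters no comparison of genes.

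The gate genes had the levels that the rule asks for, and the single cells spread widely above its threshold. Ace, which encodes angiotensin-converting enzyme, stood at 925 CPM for NW, 930 for NK, 711 for HSW and 391 for HSK, against 13.1 to 22.7 CPM in classical monocytes. Treml4, a receptor of the TREM family, stood at 245, 202, 194 and 60.9 CPM, and Cd300e, an activating receptor of monocytes, at 98.5, 92.8, 147 and 23.4 CPM. The 30 cells of HSK were the lowest for all 3 genes.

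Eno3, the muscle form of enolase, stood at 356 CPM for NW, 302 for NK, 317 for HSW and 77.3 for HSK, and Cx3cr1, the fractalkine receptor, at 266, 179, 143 and 23.4 CPM. The 5 leading marker genes had a median sum of 10 UMIs per cell for NW, 9 for NK, 10 for HSW and 7 for HSK, with maxima of 59, 59, 44 and 17. Just inside the threshold, at a sum of 5, lay 85 cells of NW, 49 of NK, 13 of HSW and 6 of HSK. Just outside it, at a sum of 4, lay 108, 86, 30 and 13. For Nr4a1, which the rule did not use, the cells just inside and just outside stood at 925 and 786 CPM in NW, 799 and 697 in NK and 222 and 439 in HSW. For H2-Aa they stood at 1411 and 948 CPM in NW, 1201 and 1564 in NK and 1274 and 667 in HSW, so neither gene differed in the same direction in all 3 libraries.

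Outside the genes of both gates, non-classical monocytes differed from classical monocytes of the same library in their lipid-binding, adhesion and survival genes. Among the 12 genes most above classical monocytes, Spn, which encodes the sialophorin CD43 and is the standard surface marker of the subset, stood at 356 CPM in filtered cells of NW, 453 in NK and 389 in HSW. Classical monocytes held 70.9, 68.2 and 68.3 CPM, which gives ratios of 5.02, 6.64 and 5.70. Fabp4, a fatty acid binding protein, stood at 115, 168 and 112 CPM against 4.22, 7.03 and 6.83 CPM. The 3 libraries gave the same direction for both genes and lay close to each other in level. Spn was not used by the rule, so it checks the label of these cells.

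Fcgr4, the activating receptor for IgG2 and a hallmark of non-classical cells, stood at 236 CPM in NW, 241 in NK and 303 in HSW, which is 5.31, 4.03 and 9.34 times the level in classical monocytes. Tgm2, the tissue transglutaminase, was 3.92, 6.84 and 14.9 times higher, and the inhibitory collagen receptor gene Lair1 3.98, 4.44 and 6.67 times higher. Pglyrp1, Stap1, Cyfip2 and the lymphocyte antigen gene Ly6i were 3.82 to 7.92 times higher. Bcl2a1d and Bcl2a1a, copies of the A1 family of anti-apoptotic proteins, were 5.94 to 16.0 times higher. The A1 copies are nearly identical to each other, and so are several Ly6 genes, so reads could have been split between them. S100a9 was also named by the rule, at 4.40, 3.35 and 9.46 times the classical level in all gated cells, but in filtered cells its ratios were 1.07, 1.06 and 1.25.

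The genes furthest below classical monocytes included those of matrix and acute inflammation. Fn1, fibronectin, stood at 234, 385 and 132 CPM in NW, NK and HSW against 1355, 1867 and 1200 CPM in classical cells. Its ratios were 0.173, 0.206 and 0.110, and the chemokine gene Ccl2 stood at 0.392, 0.454 and 0.534 times the classical level. Mmp8, Saa3, Ethe1, Iqgap2 and Emb were at 0.190 to 0.400 times. Those named here were below classical monocytes in all 3 libraries, in filtered and in all gated cells.

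**Figure D1:**
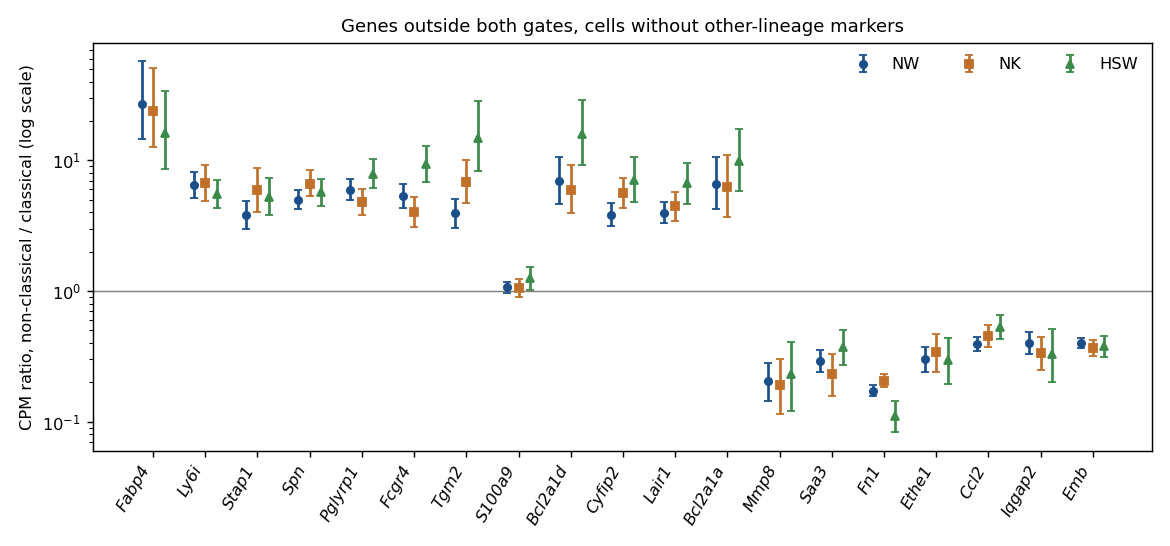
Ratio of CPM in non-classical to classical monocytes in filtered cells of NW, NK and HSW, on a log axis, for genes outside both gates named by the rule; bars are exact 95% intervals for counting error. The 3 libraries lie on the same side of 1 for each gene, S100a9 lies nearest to 1, and Fabp4 has the widest intervals, at 27.2, 23.97 and 16.3 times.

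A gene is counted as past the limit when its ratio exceeds 1.5 in either direction. Of all genes tested in all gated cells, 8.55% were higher and 4.66% lower in non-classical than classical monocytes in NW, 8.2% and 5.73% in NK, and 18.4% and 8.81% in HSW. A list of 24 genes of the non-classical programme, from which the gate was left out, had 23 members above the filter of a mean of 25 CPM, and 18 of them were higher and 0 lower in each library. Its median log2 ratio was 1.89 in NW, 1.45 in NK and 2.22 in HSW, against medians of all genes of 0.00, 0.01 and 0.09. Of 16 measured genes of the classical programme outside the gates, 11 were lower in NW, 13 in NK and 13 in HSW.

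Other lists were compared in the same way in all gated cells. Genes of lipid uptake and cholesterol handling were higher in 12 of 24 in NW, 11 of 25 in NK and 13 of 20 in HSW, with median log2 ratios of 0.49, 0.49 and 0.94. Genes of the interferon response were higher in none and lower in 9 of 35, 17 of 34 and 17 of 36, with median log2 ratios of -0.29, -0.60 and -0.56. MHC class II and co-stimulation genes were higher in 6 of 11, 4 of 12 and 7 of 11, and lower in 0, 1 and 1. These 3 lists kept the sign of their medians in filtered cells, where the interferon medians were -0.16, -0.45 and -0.14 and the lipid medians 0.25, 0.24 and 0.30. Class II genes were not above the classical level in all cells of the subset. In the filtered cells of NW richest in gate markers, the high tier below, H2-Aa stood at 552 CPM against 831 CPM in filtered classical monocytes. Cd74 stood at 2823 against 2498 CPM there, and H2-Aa in the high tier of HSW at 1252 against 623 CPM.

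The non-classical monocytes were not uniform. Filtered cells of each library were divided into a low, a middle and a high tier of about equal size by the share of their UMIs that came from the 5 leading gate markers. This share averaged 0.103%, 0.204% and 0.426% in the low, middle and high tier of NW (128 cells each), 0.132%, 0.227% and 0.425% in NK (60 or 61 cells each) and 0.118%, 0.209% and 0.394% in HSW (25 or 26 cells each). Some genes that the gate did not use, among them Ly6c2, Ccr2, Spn, Fabp4, H2-Aa and Cd74, moved along this division in the same order in the 3 libraries. Others, such as Nr4a1 and Tnf, did not.

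Ly6c2, the gene of the Ly6C antigen, went from 646 CPM in the low tier to 505 and 206 CPM in NW, and from 615 to 458 and 152 CPM in NK. In HSW it went from 2687 CPM to 420 and 92.5 CPM. The low tier of HSW was thus the only one above 646 CPM, while the high tier of HSW was the lowest of the 9. Ccr2 went from 1252 to 974 and 340 CPM in NW, from 984 to 469 and 296 in NK and from 598 to 217 and 156 in HSW. For Ccr2 each tier of HSW was below the same tier of NW and NK.

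Spn ran the other way, from 192 to 309 and 605 CPM in NW, from 274 to 373 and 740 in NK and from 212 to 392 and 583 in HSW. Itgal, the alpha chain of LFA-1, went from 750 to 949 and 1206 CPM in NW and from 621 to 924 and 1214 in NK. In HSW it stood at 488, 441 and 839 CPM, below the other libraries in every tier. Fabp4 stood at 31.2, 63.7 and 6.43 CPM in the low tier of NW, NK and HSW and at 269, 278 and 277 CPM in the high tier. Nr4a1 showed no such slope: it stood at 1546, 1638 and 1679 CPM in NW, 1628, 1552 and 1892 in NK and 713, 1447 and 989 in HSW.

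The class II genes were lower where the marker share was higher. H2-Aa went from 2090 to 1310 and 552 CPM in NW, from 2007 to 1508 and 518 in NK and from 3098 to 2035 and 1252 in HSW. Cd74, the invariant chain, went from 6623 to 4281 and 2823 CPM in NW and from 10283 to 9383 and 6145 in HSW. In each tier HSW held more of both than NW. The median depth also went down along the tiers, from 6201 to 4818 UMIs in NW, from 4776 to 3884 in NK and from 5526 to 4842 in HSW. Its part in these slopes was not tested.

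**Figure D2:**
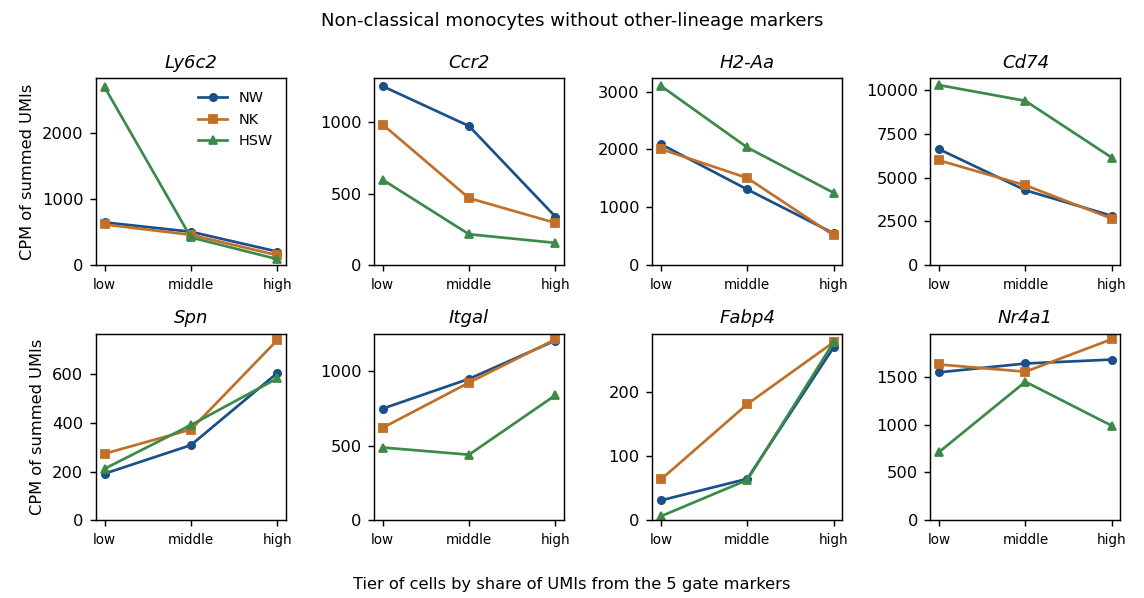
CPM of the summed UMIs of 8 genes in tiers of filtered non-classical monocytes, ordered by the share of UMIs from the 5 leading gate markers, in NW, NK and HSW; each point is a sum over 25 to 128 cells of 1 library. Ly6c2, Ccr2, H2-Aa and Cd74 are lower and Spn and Fabp4 higher in the high tier than in the low tier in each library.

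HySu against normoxia in the wild type (HSW against NW) gave more genes below than above. In all gated cells 422 of 5394 genes (7.82%) were past 1.5 times higher and 1061 (19.7%) past 1.5 times lower. In filtered cells 8.47% were higher and 26.4% lower of 5006 genes, with a median log2 ratio of all genes of -0.20. Under TMM scaling, which centres the bulk of the genes, the median of filtered cells moved to -0.02, and the higher genes among those past 1.5 times went from 24.3% to 44.4% (28.5% to 46.4% in all gated cells). The ratio also moved with transcript length: across genes Spearman's rho was -0.32 in filtered cells, with a median log2 ratio of 0.09 in the shortest 20% and -0.42 in the longest 20% of transcripts. In all gated cells rho was -0.34, and in all gated classical monocytes of the same libraries it was -0.47. The part of length in the genes named below was not tested.

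The 10 genes most above NW in all gated cells were led by Mfap4, at 227 CPM in HSW against 21.3 in NW (10.6 times, 8.45 to 13.5), with Ager, Pmp22, Igfbp7, Ogn, Prelp, Sept4, Dpep1, Rarres2 and Ces1d. These are largely genes of lung fibroblasts and alveolar epithelium. In filtered cells none of the 10 kept an interval above 1, and 3 kept the direction. Among the 10 most below, Ltf, Camp and Ngp are granule genes of neutrophils and Gzma and Nkg7 genes of cytotoxic lymphocytes, and Gzma, Slc20a1, Atp2a3 and Gramd1a were among those that kept an interval below 1 in filtered cells. The values that follow are therefore from filtered cells, with those of all gated cells beside them where they differ by more than 1.5 times or in direction. Values for classical monocytes are from classical cells filtered in the same way.

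The genes that set classical from non-classical cells differed unequally between HSW and NW. Ly6c2 stood at 1118 CPM in HSW and 466 in NW, a ratio of 2.40 (2.15 to 2.67), and at 2.78 times in classical monocytes. Classical cells were selected on Ly6c2, Ccr2 and Vcan, so classical ratios of these genes are a description only. The higher sum did not lie in the typical filtered cell, with a median of 0 CPM in both libraries. A UMI of Ly6c2 was found in 41.6% of filtered cells of HSW and 47.9% of NW. By tier, HSW was above NW in the low tier alone, at 2687 against 646 CPM. HSW was below NW in the middle tier (420 against 505 CPM) and the high tier (92.5 against 206 CPM). In gated cells thinned to 4500 UMIs, a UMI of Ly6c2 was found in 46.8% for HSW and 42.2% for NW, against 30.1% and 24.7% of alveolar type 2 cells thinned in the same way. At least 5 UMIs of Ly6c2 were found in 26.0% of thinned non-classical monocytes of HSW and 13.4% of NW, against 1.02% and 1.51% of alveolar type 2 cells. S100a10, a gene of the same programme, stood at 307 against 197 CPM.

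Ccr2 stood at 332 CPM in HSW and 884 in NW, 0.376 times (0.316 to 0.445). In thinned gated cells a UMI of Ccr2 was found in 37.7% for HSW and 67.8% for NW, against 1.84% and 8.73% of alveolar type 2 cells. In classical monocytes, whose gate used Ccr2, it was at 0.573 times. Vcan, versican, stood at 34.2 and 105 CPM, 0.324 times (0.178 to 0.545) with 15 UMIs in HSW, but its ratio was 0.870 in all gated cells. The classical programme as a whole had 2 of 20 genes higher and 6 lower, with a median log2 ratio of -0.35 (-0.27 in all gated cells), where 8.47% of all genes were higher and 26.4% lower with a median of -0.20.

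Nr4a1, Cebpb and Klf4 stood lower in HSW than in NW, and each was lower in classical monocytes too (Cebpb at 0.408 and Klf4 at 0.549 times). Nr4a1 stood at 1040 CPM in HSW and 1616 in NW, 0.644 times (0.583 to 0.710), and at 0.531 times in classical monocytes. Its median over single cells was 756 against 1388 CPM. Cebpb, a factor for the survival of Ly6C-low monocytes, stood at 203 and 397 CPM, 0.510 times (0.406 to 0.635). Klf4 stood at 813 and 1146 CPM, 0.709 times. Of 30 transcription factors of monocytes that passed the filter, 1 was higher and 11 lower, where 8.47% of all genes were higher and 26.4% lower. The median log2 ratio of the list was -0.48, against -0.20 for all genes and, in classical monocytes, -0.61 for the list and -0.30 for all genes.

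The non-classical programme had 1 of 23 genes higher and 7 lower, with a median log2 ratio of 0.00. Gngt2, a G-protein subunit, stood at 3090 CPM in HSW and 2129 in NW, 1.45 times (1.36 to 1.54), while the scavenger receptor gene Cd36 stood at 84.2 and 202 CPM, 0.418 times, and at 0.801 times in all gated cells. Itgal was at 0.614 times (0.537 to 0.699) and Itgam, the alpha chain of Mac-1, at 0.601 times (0.478 to 0.749). Both integrin chains were also lower in classical monocytes, at 0.459 and 0.537 times. Of 24 adhesion and patrolling genes, 2 were higher and 5 lower, shares near those of all genes. Of 24 genes of lipid uptake, 0 were higher and 9 lower, where all gated cells gave 2 and 2. All genes gave 8.47% higher and 26.4% lower in filtered cells, and 7.82% and 19.7% in all gated cells.

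The MHC class II genes Cd74, H2-Eb1, H2-Aa and H2-Ab1 stood above NW in filtered cells. MHC class II molecules are heterodimers that show peptides to CD4 T cells, and Cd74 chaperones them. Cd74 stood at 8666 CPM in HSW and 4717 in NW, 1.84 times (1.77 to 1.91). H2-Eb1, a beta chain, stood at 1116 and 615 CPM, 1.81 times (1.63 to 2.01). H2-Aa, an alpha chain, stood at 2161 and 1372 CPM, 1.58 times (1.46 to 1.70), and H2-Ab1, its beta chain, at 2047 and 1561 CPM, 1.31 times (1.22 to 1.41). In all gated cells the ratios were 1.26, 1.15 and 1.06 for the first 3, and H2-Ab1 was below 1, at 0.819 times (0.773 to 0.867).

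In classical monocytes the same 4 genes were below 1, at 0.853, 0.823, 0.750 and 0.567 times. The higher sum did not lie in the typical cell: the median of Cd74 was 1015 CPM in HSW and 1016 in NW, and the upper quartile was 13241 against 4883 CPM. For H2-Aa the medians were 156 and 195 CPM and the upper quartiles 2453 and 982 CPM. The difference in the sum thus lay in the cells with the most class II RNA among the 77. Markers of conventional dendritic cells, which also hold much class II RNA, were among the lists used to remove cells. In all gated cells, before that removal, their 6 genes summed to 10.2 CPM in HSW, with 3 of 6 at 0 (Cd209a, Clec9a and Zbtb46), and to 46.1 CPM in NW, with 0 of 6 at 0. Such sums over all cells do not show whether a few cells rich in class II RNA are dendritic cells. The part of dendritic cells in the class II difference was not tested.

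Of 11 class II and co-stimulation genes that passed the filter, 4 were higher and 0 lower in filtered cells, and 1 and 1 in all gated cells. All genes gave 8.47% higher and 26.4% lower in filtered cells, and 7.82% and 19.7% in all gated cells. Class II genes share promoter elements called the X and Y boxes, the latter an inverted CCAAT sequence, through which CIITA acts. The 100 bases before the start of the 2 class II genes that held both letters searched (GCAACT and ATTGG, on either strand, in the 250 bases before the start) are shown because these genes moved together along the tiers and between HSW and NW. The sequences are from RefSeq on GRCm38.p6 and capitals mark the matches. H2-Aa lies on the minus strand at chr17:34287824-34287923 and H2-Eb1 on the plus strand at chr17:34305767-34305866.
H2-Aa: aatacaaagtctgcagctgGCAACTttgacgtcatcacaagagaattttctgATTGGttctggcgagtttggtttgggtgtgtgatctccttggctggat
H2-Eb1: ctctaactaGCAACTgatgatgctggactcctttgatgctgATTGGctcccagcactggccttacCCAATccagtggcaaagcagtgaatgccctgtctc
The 2 motifs are 27 bases apart in H2-Aa and 26 bases apart in H2-Eb1. Of 16 genes of the list, 10 were found in the promoter table and 2 of them held both motifs, whereas 9.01% of all 32851 promoters held GCAACT, 33.9% held ATTGG and 3.21% held both. Cd74, H2-Ab1 and Ciita were among the genes not found, so their promoters were not searched. Only exact letters were searched, so a promoter without a match can still hold a variant of either box. Whether these elements have a part in the class II levels was not tested.

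B2m and Tyrobp of HSW were higher by like ratios in both monocyte types, while the class I list went both ways. B2m, the light chain of MHC class I, stood at 7543 CPM in HSW and 4613 in NW, 1.64 times (1.57 to 1.70), and at 1.66 times in classical monocytes. Tyrobp, the adaptor DAP12, stood at 6291 and 3379 CPM, 1.86 times (1.78 to 1.95), and at 1.83 times in classical monocytes. Fcer1g, the common Fc receptor gamma chain, was at 1.47 times in non-classical and 1.46 times in classical monocytes. For B2m and Tyrobp the difference was in the typical cell, with medians of 7683 against 4368 CPM and 6270 against 3105 CPM. H2-Q7, a class I gene with close copies, stood at 150 and 65.2 CPM, 2.30 times, and at 1.30 times in all gated cells. Calr, calreticulin, a chaperone of class I loading, stood at 223 and 465 CPM, 0.480 times (0.386 to 0.591), and at 0.774 times in all gated cells. Of 22 class I genes, 3 were higher and 6 lower, where 8.47% of all genes were higher and 26.4% lower. The median log2 ratio of the list was 0.01 against -0.20 for all genes.

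Cytokine and survival genes went in both directions. Of 25 cytokine and NF-kB feedback genes, 2 were higher and 3 lower in filtered cells. The median log2 ratio of the list was 0.19, against -0.20 for all genes. In all gated cells 4 of 26 were higher and 8 lower, with a median of -0.13 against -0.17 for all genes. Tnf stood at 93.4 CPM in HSW and 236 in NW, 0.396 times (0.281 to 0.544), and Nfkbid, a nuclear regulator of NF-kB, at 0.448 times (0.305 to 0.636). From the low to the high tier Tnf stood at 32.1, 133 and 121 CPM in HSW and at 374, 125 and 180 CPM in NW. HSW was thus not below NW in the middle tier. A UMI of Tnf was found in 29.9% of filtered cells of HSW and 31.8% of NW. Ccl4, a chemokine, stood at 1207 and 722 CPM, 1.67 times (1.51 to 1.85), and at 1.83 times in classical monocytes. The A1 copies Bcl2a1a, Bcl2a1b and Bcl2a1d were at 1.77, 1.93 and 1.83 times, with 36 to 68 UMIs in HSW. Mcl1, another anti-apoptotic gene of the BCL2 family, stood at 326 and 595 CPM, 0.548 times (0.458 to 0.651). Of 36 genes of the interferon response, 7 were higher and 6 lower, where all gated cells gave 3 and 12. Among all genes 8.47% were higher and 26.4% lower in filtered cells, and 7.82% and 19.7% in all gated cells. Phf11b, a gene with close copies, stood at 223 against 95.5 CPM. Xaf1 stood at 164 against 89.2 CPM (1.84 times, and 1.08 in all gated cells), while Rsad2, viperin, stood at 13.7 against 42.1 CPM with 6 UMIs in HSW.

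Metabolic genes were led by those of the mitochondrial genome. mt-Cytb stood at 3021 CPM in HSW and 1336 in NW, 2.26 times (2.12 to 2.41), mt-Nd4 at 2097 and 964 CPM and mt-Nd5 at 936 and 467 CPM. In classical monocytes they were at 2.70, 2.22 and 2.19 times. Mitochondrial RNA was 2.10% of UMIs in filtered cells of HSW, 1.39% in NW and 1.25% in NK, and this share is also a measure of RNA quality. Of 78 nuclear genes of the respiratory chain, 8 were higher and 4 lower, with a median log2 ratio of 0.22. Among all genes of filtered cells 8.47% were higher and 26.4% lower, with a median of -0.20. Of 80 ribosomal protein genes, 14 were higher and 0 lower, with a median of 0.29 (0.32 in classical monocytes). Gapdh, of glycolysis, stood at 1357 against 817 CPM, while of 22 hypoxia-response and glycolysis genes 1 was higher and 4 lower.

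Mitophagy and autophagy genes, the process of FUNDC1, had 0 of 22 higher and 5 lower in filtered cells, where 8.47% of all genes were higher and 26.4% lower, and 3 and 3 in all gated cells. The share of lower genes was thus no larger than that of all genes. No gene induced by glucocorticoids was past 1.5 times in filtered cells (0 of 10). Outside the lists, the gene most above NW in filtered cells was Ly96, which encodes the TLR4 co-receptor MD-2. It stood at 121 CPM in HSW and 14.0 in NW, 8.60 times (5.42 to 13.9), and at 3.49 times in all gated cells. From the low to the high tier Ly96 stood at 129, 112 and 121 CPM in HSW and at 11.99, 8.63 and 22.1 CPM in NW, so HSW was above NW at each marker share.

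Tgm3 was at 3.88 times, Ifi202b, which has close copies, at 3.60 times and Plk2 at 2.81 times (1.44 in all gated cells) in HSW. Among the genes most below NW, Slc12a9 was at 0.131 times with 3 UMIs in HSW (0.0267 to 0.393; 0.198 in all gated cells) and Fli1, an ETS transcription factor of blood cells, at 0.229 times. The 12 lowest genes held 3 to 8 UMIs each in HSW, so their intervals are wide: for Fli1 it was 0.0971 to 0.460, and the ratio in all gated cells was 0.704.

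In most of the remaining lists more genes of HSW stood below than above NW, as among all genes, of which 8.47% were higher and 26.4% lower in filtered cells. Of 24 Fc receptor, scavenger and phagocytosis genes 1 was higher and 8 lower in filtered cells, where all gated cells gave 6 and 1 of 28. Of 19 growth factor and survival genes 3 were higher and 6 lower, and of 30 immediate early and stress genes 3 and 5. Ier3, an early response gene of this list, stood at 168 against 90.6 CPM. Of 24 antioxidant genes 1 was higher and 2 lower, of 16 death and p53 genes 0 and 4, of 16 genes of mitochondrial fission, fusion and import 0 and 5, of 6 aryl hydrocarbon receptor genes 0 and 2, and of 28 actin genes 2 and 2. None of the 3 measured cell cycle genes was past 1.5 times.

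**Figure D3:**
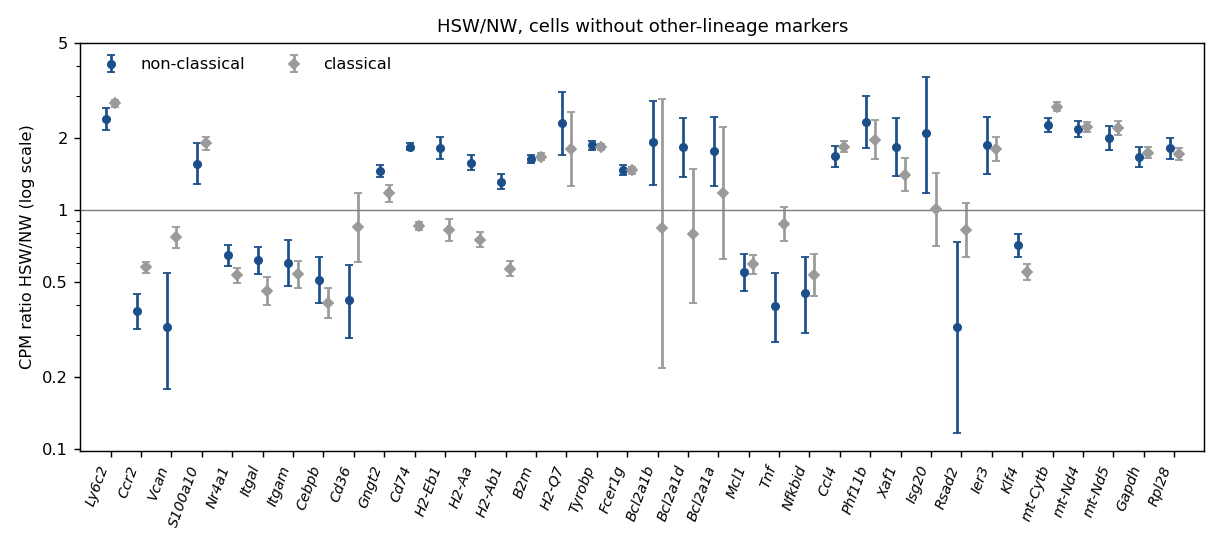
Ratio of CPM in HSW to NW, on a log axis, for genes described in the text, in filtered non-classical and filtered classical monocytes; each point is 1 library against 1 library and bars are exact 95% intervals for counting error. The class II genes lie above 1 in non-classical and below 1 in classical cells, while Ly6c2, B2m, Tyrobp and the mitochondrial genes lie above 1 in both. Classical cells were selected on Ly6c2, Ccr2 and Vcan, so their classical points are a description only.

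FUNDC1 knockout against wild type in normoxia (NK against NW) gave fewer genes past the limit in all gated cells. In all gated cells 324 of 5691 genes (5.69%) were past 1.5 times higher and 169 (2.97%) past 1.5 times lower. In filtered cells 9.13% were higher and 6.43% lower of 5411 genes, with a median log2 ratio of all genes of 0.06. TMM scaling moved that median to -0.06 and the higher genes among those past 1.5 times from 58.7% to 37.5% (65.7% to 28.2% in all gated cells), so the balance of higher to lower genes depends on the scaling. Spearman's rho with transcript length was 0.19 across genes.

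The leading genes of all gated cells were those of other cells. The 10 highest were Retnla, Hhip, Scgb3a2, Sec14l3, Cyp2f2, Scgb1a1, Cbr2, Ces1d, Chchd10 and Crip2, of which Scgb1a1, Scgb3a2 and Cyp2f2 are genes of airway club cells. Scgb1a1 stood at 18619 CPM in NK and 1683 in NW in all gated cells, and at 1739 and 1701 CPM in filtered cells. In filtered cells 8 of the 10 kept the direction and 2 of them, Retnla and Cbr2, an interval above 1, but 1 cell held 98.7% of the filtered Retnla UMIs of NK. Among the 10 lowest, Camp, Ltf, Ngp, S100a8, S100a9 and Lcn2 are neutrophil genes, with Cxcl3, Ccl17, Lilra6 and Ocel1. In filtered cells 5 of these 10 kept the direction, and 4 of them, S100a8, S100a9, Lilra6 and Ocel1, an interval below 1, while Ltf was at 2.07 times and Ngp at 2.86 times. Neutrophil markers summed to 689 CPM in filtered cells of NK and 958 in NW.

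Several inflammatory genes stood lower in the non-classical monocytes of NK, and some of them in classical monocytes too. Tnf stood at 101 CPM in NK and 236 in NW, 0.427 times (0.335 to 0.537), and at 0.911 times in classical monocytes (0.764 to 1.08). From the low to the high tier Tnf stood at 115, 140 and 44.4 CPM in NK and at 374, 125 and 180 CPM in NW. The middle tier of NK was thus not below that of NW. Il1b, interleukin 1 beta, stood at 411 and 725 CPM, 0.567 times (0.504 to 0.637). Cxcl2, a chemokine for neutrophils, stood at 386 and 685 CPM, 0.564 times (0.499 to 0.635), and at 0.784 times in all gated cells.

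Nfkbid was at 0.467 times (0.356 to 0.605) and Ccrl2, a non-signalling chemokine receptor, at 0.526 times (0.425 to 0.647). Classical monocytes gave 0.563 times (0.485 to 0.651) for Ccrl2, 0.803 times (0.728 to 0.886) for Il1b and 0.832 times (0.692 to 0.999) for Nfkbid. For Cxcl2 they gave 0.940 times (0.874 to 1.01). Ccl5 went the other way, at 86.6 against 46.6 CPM, 1.86 times, and at 1.14 times in all gated cells. Of 25 cytokine and NF-kB feedback genes that passed the filter, 2 were higher and 9 lower in filtered cells, with a median log2 ratio of -0.22, and 0 and 6 in all gated cells, with a median of -0.33. All genes gave 9.13% higher and 6.43% lower in filtered cells, and 5.69% and 2.97% in all gated cells. In classical monocytes the median of the list was -0.11. Tnf and Nfkbid were below NW in HSW as well, and both comparisons share the library NW.

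More genes of the interferon response stood below than above NW in NK. Ifi27l2a, an abundant interferon-induced gene, stood at 1654 CPM in NK and 2615 in NW, 0.633 times (0.597 to 0.671), and at 0.675 times in classical monocytes. Isg15 stood at 39.8 and 73.4 CPM, 0.542 times (0.363 to 0.789). Mx1, an antiviral GTPase, was at 0.301 times with 12 UMIs in NK and Rsad2 at 0.361 times with 13 UMIs. Others stood above NW: Gbp3, a guanylate-binding protein, at 90.1 against 61.6 CPM, 1.46 times (1.09 to 1.95), and Bst2, tetherin, at 206 against 161 CPM, 1.28 times (1.06 to 1.53). Of 33 measured genes 0 were higher and 4 lower in filtered cells, and 0 and 8 in all gated cells, with median log2 ratios of -0.14 and -0.35. All genes gave 9.13% higher and 6.43% lower in filtered cells, and 5.69% and 2.97% in all gated cells. In classical monocytes 2 were higher and 5 lower of 40, where 6.84% of all genes were higher and 4.1% lower.

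Genes induced by glucocorticoids stood higher in NK in both monocyte types. Tsc22d3, which encodes the glucocorticoid-induced leucine zipper GILZ, stood at 476 CPM in NK and 284 in NW, 1.68 times (1.48 to 1.90). Fkbp5, a co-chaperone of the glucocorticoid receptor, stood at 51.5 and 22.6 CPM, 2.27 times (1.48 to 3.48). Klf9 stood at 71.4 and 28.1 CPM, 2.54 times (1.76 to 3.68).

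Ddit4 was at 1.78 times (1.48 to 2.15) and the clock gene Per1 at 1.46 times (1.12 to 1.88). In classical monocytes the 5 genes were at 1.57, 3.56, 2.07, 1.62 and 1.37 times. Of 13 measured members of the list 4 were higher and 0 lower, with a median log2 ratio of 0.25 (0.31 in classical monocytes), against 9.13% higher among all genes.

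Identity genes changed little in NK. Nr4a1 stood at 1687 CPM in NK and 1616 in NW, 1.04 times (0.982 to 1.11), and at 0.850 times in all gated cells. Of 23 genes of the non-classical programme 1 was higher, Cyfip2, at 308 against 200 CPM, and 1 lower. Plac8 stood at 2460 and 3168 CPM, 0.776 times. Of 30 transcription factors 0 were higher and 2 lower, against 9.13% and 6.43% of all genes. Fabp4 stood at 168 and 115 CPM, 1.46 times (1.19 to 1.80), and Cd36 at 290 and 202 CPM, 1.44 times (1.23 to 1.69), but Fabp4 was at 0.978 times in thinned cells.

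Lpl, lipoprotein lipase, stood at 166 CPM in NK and 91.9 in NW, 1.81 times (1.45 to 2.25), and at 2.27 times in classical monocytes. Lyz1 stood at 247 and 63.9 CPM, 3.87 times (3.11 to 4.82), at 2.17 times in all gated cells and at 3.11 times in classical monocytes, with Lyz2 as a close copy. Ccr2 stood at 604 and 884 CPM, 0.683 times (0.619 to 0.753), and Ms4a4c at 0.589 times. Fn1 stood at 385 and 234 CPM, 1.64 times. The classical programme had 2 of 20 genes higher and 3 lower, against 9.13% and 6.43% of all genes.

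Among receptors, Cxcr4, the receptor that holds monocytes in the bone marrow, stood at 365 CPM in NK and 204 in NW, 1.79 times (1.54 to 2.07), and Itgax, the integrin chain CD11c, at 235 and 144 CPM, 1.64 times (1.37 to 1.96). Fcgr1, the high-affinity IgG receptor, stood at 44.5 and 96.9 CPM, 0.459 times (0.316 to 0.650), and at 1.01 times in classical monocytes. Msr1, scavenger receptor A, stood at 78.4 and 166 CPM, 0.472 times. Of 26 Fc, scavenger and phagocytosis genes 1 was higher and 3 lower, against 9.13% and 6.43% of all genes.

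Of 11 measured MHC class II and co-stimulation genes 0 were higher and 1 lower in NK, against 9.13% and 6.43% of all genes. Their median log2 ratio was -0.07. The median of Cd74 over single cells was 1116 CPM in NK and 1016 in NW, and the upper quartiles were 5518 and 4883 CPM. Of 23 class I genes 1 was higher and 0 lower.

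Genes of the mitochondrial genome stood slightly lower in NK. mt-Nd1 stood at 1261 CPM in NK and 1728 in NW, 0.730 times (0.682 to 0.781), mt-Nd2 at 0.668 times and mt-Nd5 at 0.706 times. None of the 6 mitochondrially encoded genes was past 1.5 times, and their median log2 ratio was -0.44 in non-classical and -0.55 in classical monocytes. Of 79 nuclear respiratory genes 1 was higher and 11 lower in filtered cells, against 1 and 2 in all gated cells. All genes gave 9.13% higher and 6.43% lower in filtered cells, and 5.69% and 2.97% in all gated cells. Uqcr10, of complex III, stood at 163 against 330 CPM.

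Of 22 mitophagy and autophagy genes 2 were higher and 0 lower in filtered cells, where 9.13% of all genes were higher and 6.43% lower, so the share of higher genes was that of all genes. Pink1, the kinase that marks damaged mitochondria, stood at 69.0 against 37.1 CPM, 1.86 times (1.31 to 2.63), and Wipi2, of autophagosome formation, at 52.7 against 27.2 CPM, 1.94 times (1.29 to 2.90). In all gated cells the ratios were 1.37 and 1.57. Of 25 antioxidant genes 2 were higher and 1 lower: Gsr, glutathione reductase, stood at 386 against 193 CPM, 2.00 times (1.73 to 2.32), and at 2.12 times in classical monocytes, while G6pdx stood at 102 against 187 CPM. Gapdh stood at 563 against 817 CPM, 0.689 times. Among death genes Bid was at 1.96 times (1.24 in all gated cells) and Ripk3 at 0.466 times.

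Outside the lists, the genes most above NW in filtered cells were Colec12, a scavenger receptor, at 56.2 against 12.2 CPM, 4.59 times (2.81 to 7.66) and 2.37 in all gated cells, and Ets1, at 83.1 against 21.7 CPM, 3.82 times (2.61 to 5.63). Both were also higher in classical monocytes, at 5.69 and 2.15 times. The heat shock genes Hsph1 and Bag3 were at 2.98 and 2.83 times (2.69 and 1.60 in all gated cells), the prostaglandin-degrading enzyme gene Hpgd at 2.81 times and Pltp, of phospholipid transfer, at 2.57 times. The genes most below NW included Lsm8 at 0.303 times (0.692 in all gated cells), Ocel1 at 0.351 times and Il4ra, the receptor for interleukin 4, at 0.369 times, although Il4ra was at 0.992 times in all gated cells.

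The remaining lists had few members past 1.5 times in NK, where 9.13% of all genes were higher and 6.43% lower. Of 24 adhesion and patrolling genes 3 were higher and 0 lower, of 23 lipid genes 3 and 1, of 19 growth factor and survival genes 1 and 0, and of 30 immediate early and stress genes 0 and 1. Of 22 hypoxia-response and glycolysis genes 1 was higher and 1 lower, and of 18 genes of mitochondrial fission, fusion and import 0 and 1. None of 28 actin genes, 80 ribosomal protein genes, 7 aryl hydrocarbon receptor genes and 3 cell cycle genes was past 1.5 times.

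**Figure D4:**
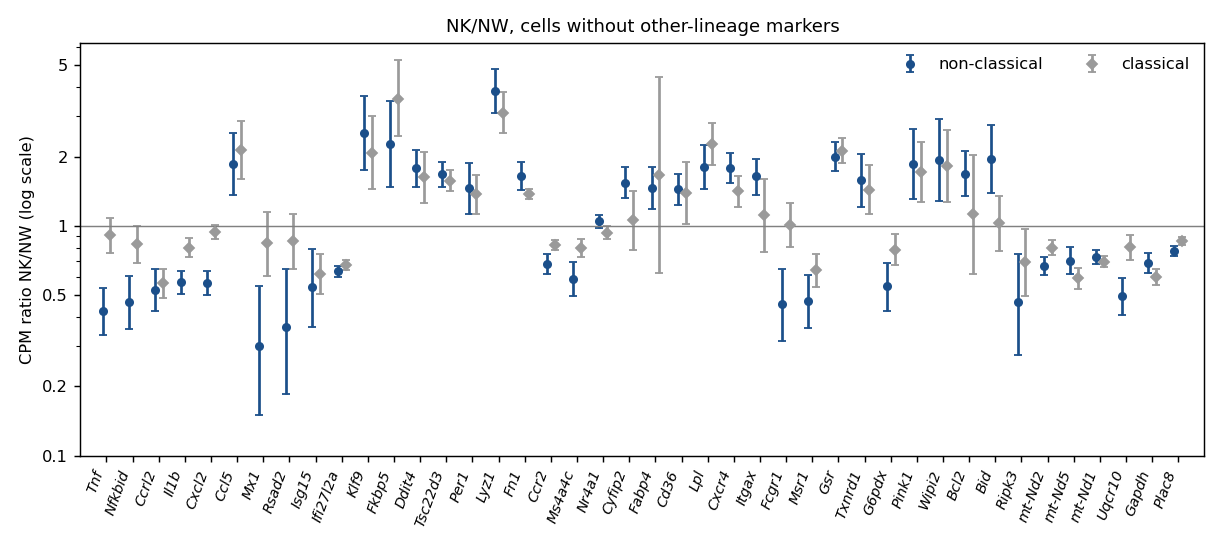
Ratio of CPM in NK to NW, on a log axis, for genes described in the text, in filtered non-classical and filtered classical monocytes; each point is 1 library against 1 library and bars are exact 95% intervals for counting error. Tnf, Il1b and Cxcl2 lie below 1 in non-classical cells and nearer to 1 in classical cells, and Klf9, Fkbp5 and Tsc22d3 lie above 1 in both. Ccr2 was a gene of the classical gate, so its classical point is a description only.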

How the data were processed

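Lung cells of 4 libraries were measured with a microwell single-cell kit, per the labels' protocols. The authors deposited UMI counts per gene and cell. Tools named in the submitters' processing notes are Scanpy, featureCounts 2.0.1, STAR 2.6.1a and cutadapt 1.17, with the builds GRCm38 and mm10; their settings and any removal of doublets are not given in the sources used here. Counts were summed over gated cells and expressed as CPM, with exact binomial or Poisson 95% intervals (scipy 1.17.1), which leave out the spread between mice. PCR and free RNA can add to counts. Genes needed a mean of 25 CPM over the pair. TMM factors came from edgeR 4.0.16. The ratio step was run on simulated Poisson counts, the model behind the intervals. That run could not cover the spread between cells, which the intervals leave out.

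The members and gene lists were chosen with earlier results of these data known. Named genes were the 10 highest and 10 lowest ratios with at least 50 CPM in 1 library, 30 UMIs over the pair, an interval that excludes 1 and at least 0.333 of the level in other cells. For identity they were the 12 highest and 8 lowest with at least 100 CPM. The 12 leading genes of filtered cells (no cell with over 25% of the UMIs) and some list members were chosen after their values were seen. Transcript lengths were medians per gene from the mouse annotation, with 97.6% to 98.0% of genes matched. Lists held 3 genes that were not used here. Some genes named by these rules are not reported here.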

Additional observations from a re-analysis of the deposited data

How the results depend on the processing

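Each group has 1 library, so no library could be left out, and no paired analysis was possible because the labels give 1 sample a group. The choice of scaling, cells and filter moved many counts. The shares in NW, NK, HSW and HSK were 9.86%, 5.19%, 3.29% and 1.04% with at least 4 marker UMIs, 5.71%, 2.70%, 1.84% and 0.339% with at least 8, 5.93%, 2.54%, 1.63% and 0.218% in thinned cells and 5.02%, 1.99%, 1.53% and 0.121% in filtered cells. Ratios of shares were 0.429 and 0.396 (NK to NW), 0.0857 and 0.0610 (HSK to NK) and 0.134 and 0.0793 (HSK to HSW) in thinned and in filtered cells.

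For HSW against NW, higher genes numbered 726 with a mean of at least 10 CPM, 139 with at least 100 and 738 in filtered cells under TMM scaling. Lower genes numbered 1863, 225 and, under TMM scaling, 706. For NK against NW, higher genes numbered 494 (filtered), 140 (TMM), 824 and 42 (at least 10 and 100 CPM) and 687 (thinned), and lower genes 348, 356, 380, 41 and 375, with 517 for filtered cells under TMM. Lists with a median above that of all genes in that comparison numbered 3 in thinned cells. For non-classical against classical in NW, higher genes numbered 836 and 143 at 10 and 100 CPM, and lower genes 449 (filtered), 521 and 101 (10 and 100 CPM), 475 (thinned) and 414 (filtered, TMM). In NK they were 969 and 115 and 794 (thinned) higher, and 653, 623, 101, 653 and 581 lower. In HSW they were 1676 and 212 higher, and 700, 834, 131, 734 and 925 lower, with 955 under TMM; TMM scaling moved the higher genes from 67.6% to 39.7% of those past 1.5 times in HSW and from 58.9% to 44.2% in NK. The cause was not tested.

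Several named genes of all gated cells changed direction in filtered cells, without and with TMM scaling. For HSW against NW these were Ager (0.290, 0.328), Pmp22 (0.279, 0.316), Ogn (0.656, 0.742), Prelp and Sept4 (0 UMIs, ratio 0), Rarres2 (0.359, 0.407, and 0.953 thinned), Ces1d (0.718, 0.813) and Cxcl3 (3.02, 3.42, and 1.02 without the deepest 10% of cells). For NK against NW they were Scgb3a2 (0.953, 0.881, and 0.544 thinned), Sec14l3 (0.369, 0.341), Scgb1a1 (0.945 with TMM, 0.838 thinned), Lcn2 (1.08 without TMM), Camp (1.20, 1.11), Ltf (2.07, 1.91), Ngp (2.86, 2.64) and Cxcl3 (1.55, 1.43, and 3.28 thinned and 2.08 without the deepest 10% of cells). Thinned cells also turned Cyp2f2 (0.977), Chchd10 (0.401) and Ccl17 (1.41). With at least 4 marker UMIs, Camp (1.68) and Ngp (2.02) turned in HSW. Il4ra was at 1.00 with at least 4 marker UMIs, and Abcd2, at 1.24 in all gated cells of HSW, was at 0.253 and 0.287 in filtered cells and at 0.814 when thinned. Against the values of filtered cells, the HSW ratio of Vcan was 1.13 with at least 8 marker UMIs and 1.12 thinned, and that of H2-Aa 0.994 with at least 4 and 0.937 without the deepest 10%. H2-Ab1 was at 0.769 and 0.874 with at least 4 and 8, 0.890 under TMM, 0.938 as a mean over cells, 0.827 thinned, 0.773 without the deepest 10% and 0.819 in all gated cells. Fabp4 in NK was at 0.978 thinned. Over all alternatives, 1194 values of single genes and lists stayed within the interval of the reported value, 525 moved beyond it and 57 changed direction. Depth limits HSW, with 77 filtered cells, and HSK, with 5.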
